A study of Mus musculus with 6 samples.

Results

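Chromatin accessibility was examined at 10 genes that mark mature macrophages, in progenitor cells that precede them. The genes were Adgre1, C1qa, C1qb, C1qc, Cd68, Mrc1, Mertk, Axl, Cd163 and Marco. A peak counted for a gene if it overlapped the gene body, or if it lay within 50 kb and no protein-coding gene was nearer. This gave 97 of the 182166 consensus peaks in the mouse build mm10, 54 inside a gene body and 43 outside. None of the 54 overlapped a second protein-coding gene. Nearest the distance limit, the farthest peak counted lay 45.7 kb from Marco, with means of 11.2 normalized reads in GFI1-KD and 15.3 in GFI1-KI. The first peak beyond the limit lay 58.3 kb from Marco, with 8.39 in GFI1-KD and 11.7 in GFI1-KI.

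The cells were granulocyte-monocyte progenitors, sorted by FACS out of bone marrow of C57BL/6 mice given no treatment, and assayed by ATAC-seq, in which the transposase Tn5 cuts open DNA and tags it for sequencing. GFI1-KD mice (GFI1 KD/KD) carry human GFI1, expressed at 10-20%, rather than mouse Gfi1. GFI1-KI mice (GFI1 KI/KI) also carry human GFI1 where the mouse gene was. Neither genotype therefore has mouse Gfi1, and GFI1 levels were not measured here, since ATAC-seq reads accessibility and not expression. Each genotype had 3 libraries, called KD1 to KD3 and KI1 to KI3. Whether each library is a different animal is not stated, and the p-values then measure library-to-library spread, which may be technical. KD1 held 0 reads in peaks on chromosome Y and KI2 held 1, against 499 to 865 in the other 4 libraries.

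Macrophages arise from monocytes or from embryonic precursors, and the genes studied here are characteristic of their mature state. Adgre1 encodes F4/80, an adhesion receptor used to recognise mouse macrophages, and Cd68 a glycoprotein of their lysosomes. C1qa, C1qb and C1qc encode the 3 chains of C1q, which starts the classical complement pathway on immune complexes and dying cells. Mertk and Axl are receptor tyrosine kinases that drive the uptake of apoptotic cells. Gas6 is a ligand of both, and Protein S is also a ligand of Mertk. Mrc1, Cd163 and Marco are scavenging receptors, for mannose-bearing glycoproteins, haemoglobin bound to haptoglobin, and bacterial and other particles.

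The sequences upstream of 4 of these genes are shown. A peak covered each of these windows at least in part, and both start windows with a called peak, at C1qc and Mrc1, are among them. A peak also reached into the Mertk and Axl windows, which are not shown. The C1qc peak covers the start site, and the Mrc1 peak ends 115 bp before it. C1qb is shown as a neighbouring chain gene of C1qc, and Cd68 for the strongest signal of the 97 peaks. Sequences are from RefSeq on GRCm38.p6, the assembly that mm10 represents, run 5′ to 3′ toward the start site, and stop before the annotated gene body. Capitals mark matches to any of 6 motifs.
Mrc1, chr2:14229164-14229413, plus strand: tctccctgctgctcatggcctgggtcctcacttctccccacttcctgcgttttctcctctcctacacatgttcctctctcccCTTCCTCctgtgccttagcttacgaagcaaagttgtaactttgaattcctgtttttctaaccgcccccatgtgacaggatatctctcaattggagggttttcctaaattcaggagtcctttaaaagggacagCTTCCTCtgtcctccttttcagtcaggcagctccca
C1qc, chr4:136892937-136893164, minus strand: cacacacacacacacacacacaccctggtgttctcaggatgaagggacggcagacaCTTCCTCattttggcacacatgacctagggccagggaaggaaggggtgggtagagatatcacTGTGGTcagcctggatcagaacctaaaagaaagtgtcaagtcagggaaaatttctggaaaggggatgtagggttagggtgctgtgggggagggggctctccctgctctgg
C1qb, chr4:136886201-136886450, minus strand: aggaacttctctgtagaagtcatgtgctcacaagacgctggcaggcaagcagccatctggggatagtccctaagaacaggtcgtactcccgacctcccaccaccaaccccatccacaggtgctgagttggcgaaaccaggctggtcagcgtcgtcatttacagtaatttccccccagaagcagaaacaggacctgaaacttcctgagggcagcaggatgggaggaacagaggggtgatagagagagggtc
Cd68, chr11:69666171-69666420, minus strand: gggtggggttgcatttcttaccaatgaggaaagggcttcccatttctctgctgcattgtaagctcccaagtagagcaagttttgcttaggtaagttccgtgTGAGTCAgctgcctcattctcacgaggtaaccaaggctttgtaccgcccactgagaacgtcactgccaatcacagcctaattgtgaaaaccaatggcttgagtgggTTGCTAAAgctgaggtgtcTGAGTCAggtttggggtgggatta

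The motifs searched, on both strands, were GAGGAAG for PU.1-type ETS factors, TTGCNNAA for C/EBP, TGANTCA for AP-1, TGTGGT for RUNX, AAATCA for a GFI1-type core and CACGTG for MITF-type factors. Mrc1 held GAGGAAG on the opposite strand at 2 places, beginning 168 and 36 bases upstream of the start site, and the first of them lay inside the peak that changed. C1qc held the same motif on the opposite strand from 194 bases upstream and the RUNX motif from 132 bases upstream, both inside its peak. Cd68 held the AP-1 motif at 149 and 24 bases upstream and a C/EBP match at 43, all inside its peak. C1qb held none of the 6, and neither did the windows of Mertk, Axl and Cd163, which are not shown. The Marco window, also not shown, held GAGGAAG from 146 bases upstream, outside any peak. The GFI1-type core was found in none of these windows. Of 32851 start windows of 250 bases, 10.6% held GAGGAAG, 9.56% the C/EBP, 6.75% the AP-1, 14.0% the RUNX, 12.4% the GFI1-type and 6.02% the MITF-type motif. In windows of 228 bases, the length for C1qc, 9.43% held GAGGAAG and 13.1% the RUNX motif. No 2 matches overlapped, and a match is a run of letters, not a binding site.

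Values are the deposited normalized reads per peak, and a peak was tested if its mean over the 6 libraries was at least 10. This left 90 of the 97 peaks, and the other 7 averaged between 1.72 and 8.74 normalized reads. The tests were made by limma on log2(value + 1) over all 170733 such peaks, so fold changes are on that scale, GFI1-KD over GFI1-KI. A peak is called if its Benjamini-Hochberg adjusted p is under 0.05. Reads in peaks numbered 16022763 to 19857646 per library in GFI1-KD and 19408373 to 27741446 in GFI1-KI. The median standard error at the tested peaks of these genes was 0.24 on the log2 scale, so small changes were not detectable at many of them.

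The progenitor label was set against markers of other cells. Of 8 progenitor markers with a RefSeq start window (Mpo, Elane, Prtn3, Ctsg, Ms4a3, Cd34, Fcgr3 and Kit), 6 had a peak in it, with a median over the 8 of 886 normalized reads per kb. The same held for 2 of 5 erythroid, 1 of 3 B cell and 1 of 6 T and NK cell markers, each with a median of 0. Over all their peaks the 7 erythroid markers summed to between 1885 and 2134 normalized reads in GFI1-KD libraries and between 2403 and 2653 in GFI1-KI libraries. The 7 T and NK cell markers summed to between 3879 and 4341 in GFI1-KD and between 4486 and 4697 in GFI1-KI. Both lists were thus lower in every GFI1-KD library, and their part in the results below was not tested. How many gene lists of such a size have sums that do not overlap was not computed. The 6 B cell markers overlapped, at 2710 to 2943 in GFI1-KD and 2869 to 3097 in GFI1-KI. So did the 8 progenitor markers, at 14052 to 14956 in GFI1-KD and 14276 to 15148 in GFI1-KI. Of the 76 tested peaks of the progenitor markers, 2 were called higher and 5 lower in GFI1-KD (9.21%, against 10.5% of all tested peaks). Of 31 tested erythroid peaks 0 were called higher and 5 lower (16.1%). Of 37 T and NK cell peaks 0 were called higher and 1 lower (2.7%), and of 51 B cell peaks 2 higher and 3 lower (9.8%). In bulk samples, fewer cells with an open site and a less open site in each cell cannot be told apart.

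Low GFI1 went with scattered changes at the macrophage genes, in both directions, and a common shift was not tested. Of 90 tested peaks 8 were called (8.89%), against 10.5% of all tested peaks. Of the 8, 4 were higher in GFI1-KD, at Cd163 (2 peaks), Mertk and Mrc1, and 4 were lower, at Marco (2 peaks), Cd163 and C1qc. Over all tested peaks 4.99% were higher and 5.48% lower. The median log2 fold change was 0.03 over the 90 peaks and -0.05 over all tested peaks. The genotypes did not overlap at 25 of the 90 (27.8%), against 28.8% of all tested peaks. The shares called and not overlapping lie near those of the whole peak set. Positive log2 fold changes were found at 52 of the 90 (57.8%), against 43.5% of all tested peaks, a description with no test. With median-of-ratios scaling, 6 were higher and 2 lower. With equal totals, and with edgeR's quasi-likelihood test on recovered reads, 6 were higher and 3 lower. The whole set moved the same way: of all called peaks 47.7% were higher as deposited, 60.1% with median-of-ratios scaling, 58.6% with equal totals and 58.4% in edgeR. DESeq2 called the Mertk peak and both higher Cd163 peaks, and these 3 were called under all 19 alternatives that gave each peak a value. Each of the other 5 lost its call in some of them.

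**Figure D1:**
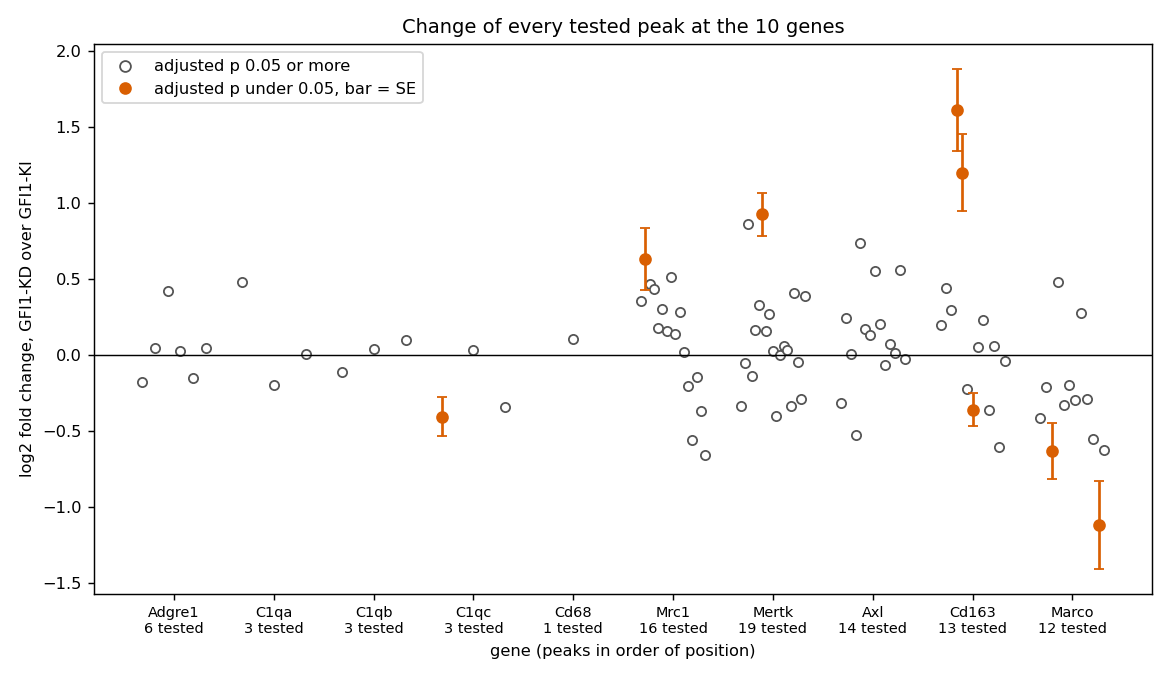
Log2 fold change, GFI1-KD over GFI1-KI, of each of the 90 tested peaks, grouped by gene and in order of position. Filled points with SE bars are the 8 peaks at an adjusted p under 0.05, from -1.12 near Marco to 1.61 near Cd163; open points are the other 82.

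At the gene starts, levels ranged widely. RefSeq start windows, from 250 bases before to 50 after the start site, were matched for 8 of the 10 genes, all but Adgre1 and C1qa. A peak lay in the window of 6, and none in that of Cd163 or Marco. Per kb of peak, Cd68 stood highest, at 2028 to 2224 normalized reads in GFI1-KD and 1897 to 2021 in GFI1-KI, above 99.8% of tested peaks. C1qc followed at 353 to 475 per kb in GFI1-KD and 516 to 584 in GFI1-KI. Mertk had 214 to 267 per kb in GFI1-KD and 244 to 257 in GFI1-KI. Axl had 176 to 239 per kb in GFI1-KD and 183 to 215 in GFI1-KI. Mrc1 had 222 to 266 per kb in GFI1-KD and 139 to 167 in GFI1-KI. C1qb stood lowest, at 109 to 164 per kb in GFI1-KD and 111 to 138 in GFI1-KI. Within GFI1-KD the ranges of Mertk, Axl and Mrc1 overlapped one another, so their order is not resolved there.

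**Figure D2:**
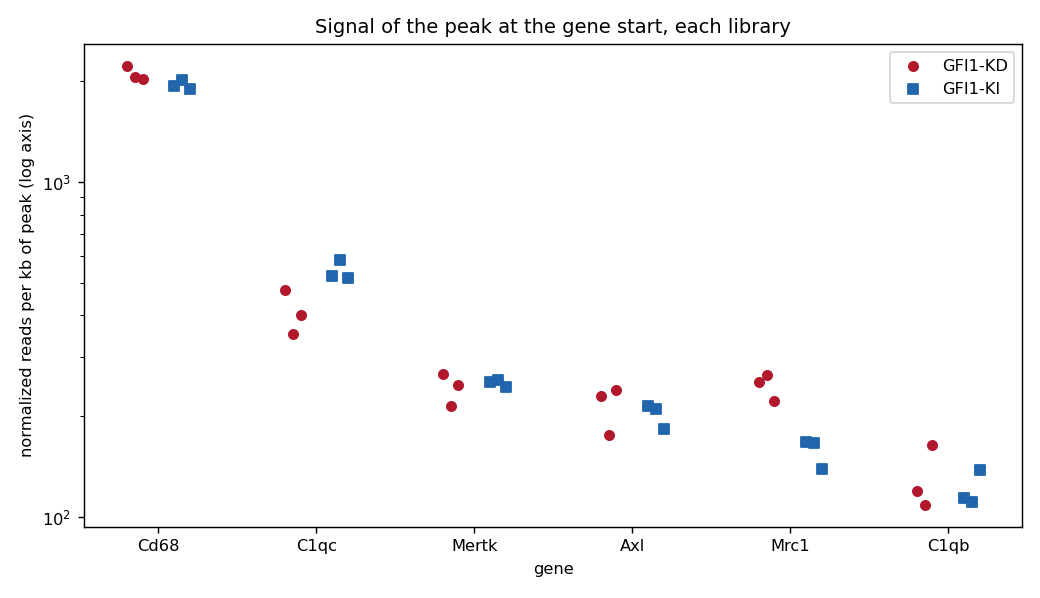
Signal of the peak in the start window of 6 genes, in normalized reads per kb of peak on a log axis, with each library as a point (GFI1-KD circles, GFI1-KI squares). Cd68 lies above the rest in every library, the Cd68 and Mrc1 points are higher and the C1qc points lower in GFI1-KD than in GFI1-KI, and at Mertk, Axl and C1qb the genotypes overlap.

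The Cd68 peak, the only peak counted for that gene, lies on chromosome 11 from 69665994 to 69666556 and covers the start site. Eif4a1, a translation initiation factor gene, lies 766 bp from Cd68. The peak overlaps Cd68 and no other protein-coding gene, and whether it also serves Eif4a1 was not tested. It held 1252, 1156 and 1142 normalized reads in GFI1-KD, against 1089, 1138 and 1068 in GFI1-KI. All GFI1-KD values lay above all GFI1-KI values, by a small margin. The log2 fold change was 0.11, with a 95% interval of -0.02 to 0.24, and it was not called (limma adjusted p = 0.297).

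The C1q genes lie side by side on chromosome 4 within the stretch from 136880126 to 136898844, and together had 9 tested peaks. The C1qc peak over its start site, from 136892836 to 136893227, was lower in GFI1-KD. It held 186, 138 and 157 normalized reads in GFI1-KD, against 205, 229 and 202 in GFI1-KI. The genotypes did not overlap, and means were 161 ± 24.1 in GFI1-KD and 212 ± 14.6 in GFI1-KI (SD, n = 3 each), and the log2 fold change of -0.41 ± 0.13 (SE) was called (limma adjusted p = 0.0455). The call was lost without KD2 (limma adjusted p = 0.172), KD3 (0.118), KI2 (0.216) or KI3 (0.107), with median-of-ratios scaling (0.0582), in edgeR (0.0519) and in DESeq2 (0.135). C1qb, 3601 bp from C1qc, had 55.6, 50.6 and 76.5 normalized reads over its start site in GFI1-KD and 52.9, 51.7 and 64.2 in GFI1-KI. That peak had a log2 fold change of 0.10 with a 95% interval of -0.30 to 0.49 and was not called (limma adjusted p = 0.8). At C1qa the peak over the gene bound at 136898844 held 30.0, 32.1 and 21.1 in GFI1-KD and 23.6, 16.7 and 18.1 in GFI1-KI, and was not called (limma adjusted p = 0.26). The strongest C1qa peak, 8.27 kb outside the gene, held 68.5, 79.0 and 66.5 in GFI1-KD and 58.5, 89.4 and 68.0 in GFI1-KI, which overlapped. Whether C1qc differs from its neighbours in its change was not tested.

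Mrc1, the mannose receptor gene, has a weak peak just before its start, on chromosome 2 from 14229105 to 14229299, and it was higher in GFI1-KD. It held 49.2, 51.8 and 43.2 normalized reads in GFI1-KD, against 32.7, 32.4 and 27.2 in GFI1-KI. The genotypes did not overlap. Means were 48.1 ± 4.40 in GFI1-KD and 30.8 ± 3.09 in GFI1-KI (SD, n = 3 each). The log2 fold change was 0.63 ± 0.20 (SE; limma, adjusted p = 0.0494). This call sat at the threshold: without any library except KI1 it was lost, at limma adjusted p between 0.072 (without KD3) and 0.202 (without KI3). It was also lost with no filter (0.0556), robust variance estimation (0.0513), a term for chromosome Y reads (0.0514), the replicate block (0.056) and DESeq2 (0.136). The strongest Mrc1 peak, 20.8 kb into the gene, held 689, 685 and 689 in GFI1-KD and 668, 578 and 605 in GFI1-KI, and was not called (log2 fold change 0.16, limma adjusted p = 0.202). Of 16 tested Mrc1 peaks 11 had a positive and 5 a negative log2 fold change, against 43.5% positive over all tested peaks. Within 1 Mb of Mrc1, 22.8% of 127 other tested peaks were called, 17 higher and 12 lower.

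Mertk, a receptor for the uptake of dying cells, had the change with the smallest p of the 90 peaks. It lay inside the gene, 47.0 kb from its start, on chromosome 2 from 128745641 to 128746171. It held 190.5, 174 and 201 normalized reads in GFI1-KD, against 118, 89.4 and 90.6 in GFI1-KI. Every GFI1-KD library exceeded every GFI1-KI library, with KI1 the nearest. Means were 188 ± 13.5 in GFI1-KD and 99.4 ± 16.3 in GFI1-KI (SD, n = 3 each). The log2 fold change was 0.92 ± 0.14 (SE; limma, adjusted p = 0.000298). Without single libraries its adjusted p in limma ranged from 4.03e-05 to 0.00532. The wide peak over the Mertk start site, 1300 bp long, held 347, 278 and 323 in GFI1-KD and 329, 334 and 317 in GFI1-KI. Its log2 fold change was -0.05, with a 95% interval of -0.27 to 0.16. The peak inside the gene had a 95% interval of 0.63 to 1.22. Whether the change differs between them was not tested. Of the other 18 tested Mertk peaks none was called. Within 1 Mb, 44 of 300 other tested peaks were called, 35 higher and 9 lower, so the Mertk peak had its direction in common with most called peaks around it.

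**Figure D3:**
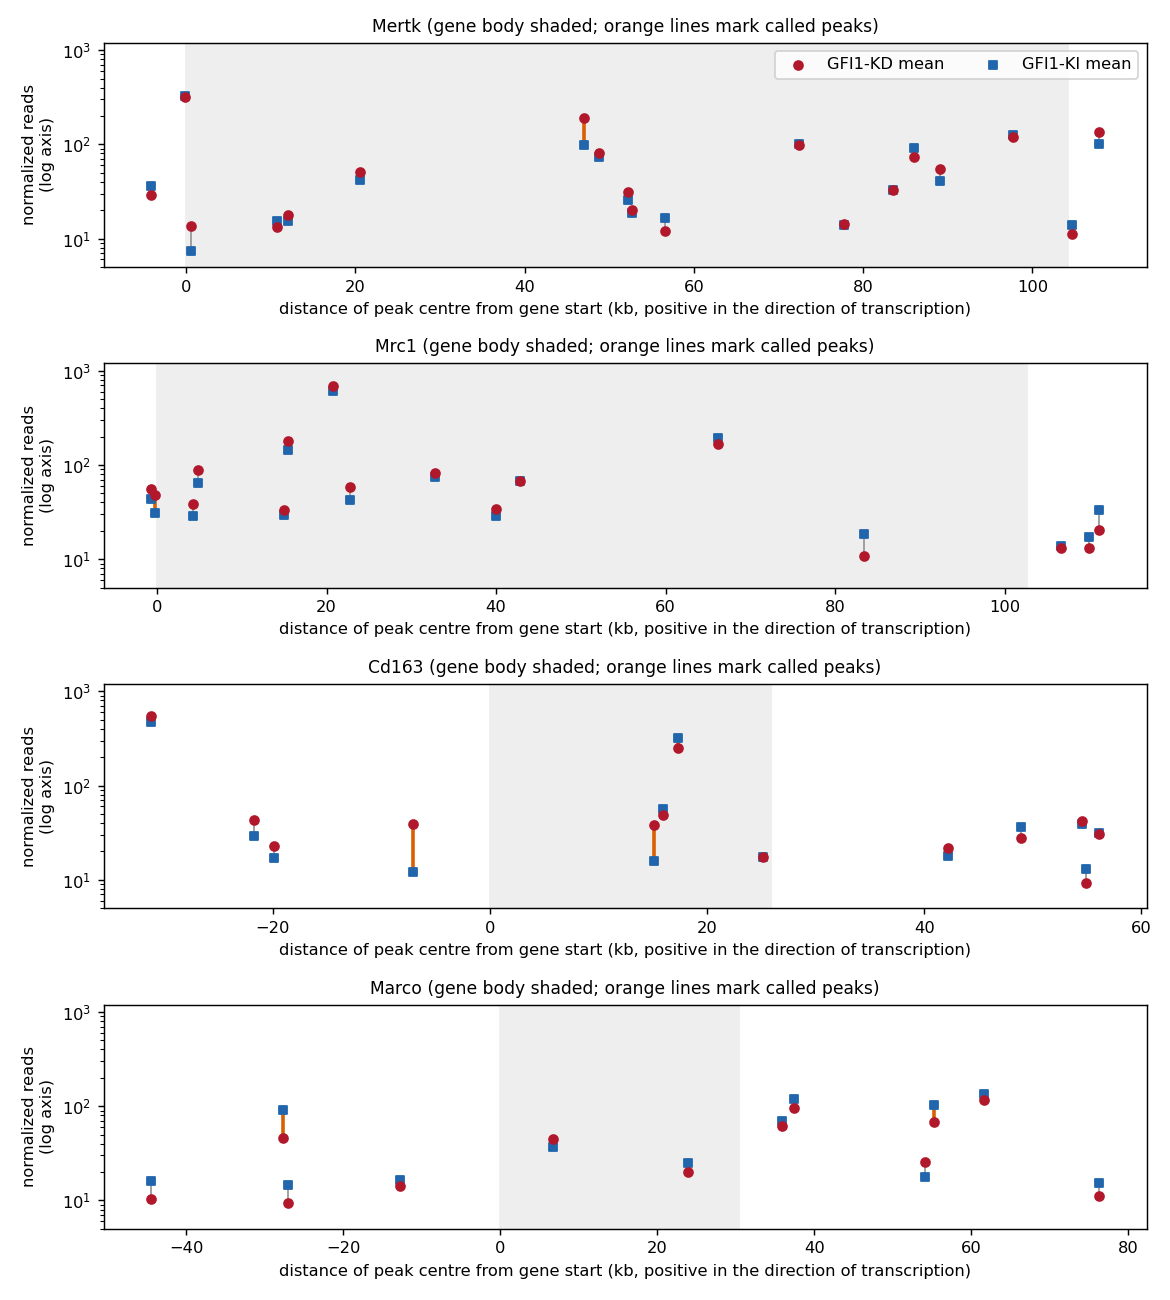
Mean normalized reads (log axis, 3 libraries per genotype) of each tested peak at Mertk, Mrc1, Cd163 and Marco against the distance of its centre from the gene start in kb, with the gene body shaded. Circles are GFI1-KD, squares GFI1-KI, and orange lines mark called peaks, which lie inside Mertk at 47.0 kb, before the start of Mrc1, in and near Cd163, and on both sides of Marco.

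Axl, the other receptor kinase of this family in the set, had 14 tested peaks and none called. Its strongest, 11.8 kb into the gene, held 708, 697 and 719.6 normalized reads in GFI1-KD and 724, 612 and 560 in GFI1-KI. The genotypes overlapped through KI1, and the peak was called only without KI1 (limma adjusted p = 0.0293, 0.212 with all libraries). The peak from 25782111 to 25782378 on chromosome 7 held 76.0, 55.5 and 62.1 in GFI1-KD and 42.8, 44.7 and 42.3 in GFI1-KI. All GFI1-KD values were above the GFI1-KI values, and the log2 fold change of 0.55 ± 0.19 (SE) was not called (limma adjusted p = 0.0576). It was called with median-of-ratios scaling (0.0327), equal totals (0.0323) and edgeR (0.0288). Over its start site Axl held 76.0, 58.0 and 78.7 in GFI1-KD and 70.9, 69.2 and 60.4 in GFI1-KI, which overlapped.

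Cd163, the haemoglobin scavenger receptor gene on chromosome 6, had changes in both directions at 3 of 13 tested peaks. The largest was outside the gene, 6.92 kb before it, from 124297400 to 124297720. This site held 46.0, 29.6 and 41.0 normalized reads in GFI1-KD, against 10.1, 11.4 and 14.3 in GFI1-KI, where 9, 13 and 19 reads stood behind the values. It was thus weak in GFI1-KI and 3.25 times as strong in GFI1-KD by the means, 38.9 ± 8.40 in GFI1-KD and 12.0 ± 2.16 in GFI1-KI (SD, n = 3 each). The log2 fold change was 1.61 ± 0.27 (SE, limma adjusted p = 0.000629).

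Inside Cd163, 15.1 kb from the start, the peak from 124319631 to 124319817 was also higher. It held 44.9, 30.9 and 37.7 normalized reads in GFI1-KD and 19.1, 15.8 and 12.8 in GFI1-KI. The genotypes did not overlap, and the log2 fold change of 1.20 ± 0.25 (SE) was called (limma adjusted p = 0.00427). Without single libraries the adjusted p in limma stayed under 0.05 at both sites, with a highest value of 0.00842 at the first and 0.0296 at the second. A few kb further in, at 17.3 kb, a stronger peak from 124321481 to 124322401 was lower. It held 230.0, 276 and 248 in GFI1-KD, against 295, 346 and 328 in GFI1-KI. The genotypes did not overlap at this site, and the log2 fold change was -0.36 ± 0.11 (SE, limma adjusted p = 0.0347). That call was lost without KD1 (0.0986), KD3 (0.099), KI2 (0.196) or KI3 (0.14), with median-of-ratios scaling (0.0624), equal totals (0.0592) and DESeq2 (0.106).

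The strongest peak counted for Cd163 lay 30.8 kb before the gene and held 551, 537 and 554 normalized reads in GFI1-KD, against 492, 479 and 460 in GFI1-KI. Every GFI1-KD library was above every GFI1-KI library, but with a log2 fold change of 0.20 it was not called (limma adjusted p = 0.121). It was called with median-of-ratios scaling (0.0394), equal totals (0.0293) and edgeR (0.0386). Within 1 Mb of Cd163, 6.9% of 232 other tested peaks were called, 5 higher and 11 lower.

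Marco, a scavenger receptor gene on chromosome 1, had 12 tested peaks, and both called peaks were lower and lay outside the gene. The first, 24.5 kb beyond the gene's far end, from 120449588 to 120450046, held 49.2, 83.9 and 71.0 normalized reads in GFI1-KD, against 101, 117 and 92.9 in GFI1-KI. All GFI1-KD values were below all GFI1-KI values, and the log2 fold change of -0.63 ± 0.18 (SE) was called (limma adjusted p = 0.0302). The second, 27.5 kb before the start, from 120532514 to 120532914, held 37.4, 22.2 and 79.8 in GFI1-KD, against 72.1, 94.7 and 105 in GFI1-KI. Here KD3 lay above KI1, so the genotypes overlapped, and the log2 fold change was -1.12 ± 0.29 (SE, limma adjusted p = 0.0147).

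Neither Marco call held in all settings. The call beyond the far end was lost without KD1 (limma adjusted p = 0.13), KD3 (0.0629), KI2 (0.164) or KI3 (0.0554), and in DESeq2 (0.0942). Its log2 fold change was -0.42 without KD1 and -0.54 without KI2, but -0.68 without KD3 and -0.71 without KI3. The share of all tested peaks called also fell, to 6.31% without KD3, 4.23% without KI2 and 4.11% without KI3. The call before the start was lost without KD2 (0.106), KI2 (0.0568) or KI3 (0.0719), with robust variance estimation (0.183) and in DESeq2 (0.301). Its log2 fold change ranged over the settings from -1.60 without KD3 to -0.70 without KD2. Of the 12 tested Marco peaks 2 had a positive and 10 a negative log2 fold change, against 43.5% positive over all tested peaks, and the median was -0.31. The strongest held 104, 96.3 and 153 normalized reads in GFI1-KD, against 132, 137 and 131 in GFI1-KI, which overlapped and was not called (limma adjusted p = 0.44). Within 1 Mb of Marco, 7.52% of 133 other tested peaks were called, 3 higher and 7 lower.

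Adgre1, the F4/80 gene on chromosome 17, had 6 tested peaks and none called. The strongest lay 13.7 kb outside the gene and held 684, 563 and 655 normalized reads in GFI1-KD, against 762, 719.6 and 669 in GFI1-KI (limma adjusted p = 0.179). The peak over the gene bound at 57358581 held 279, 248 and 272 in GFI1-KD and 296, 273 and 221 in GFI1-KI, which overlapped (log2 fold change 0.02, 95% interval -0.22 to 0.26).

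**Figure D4:**
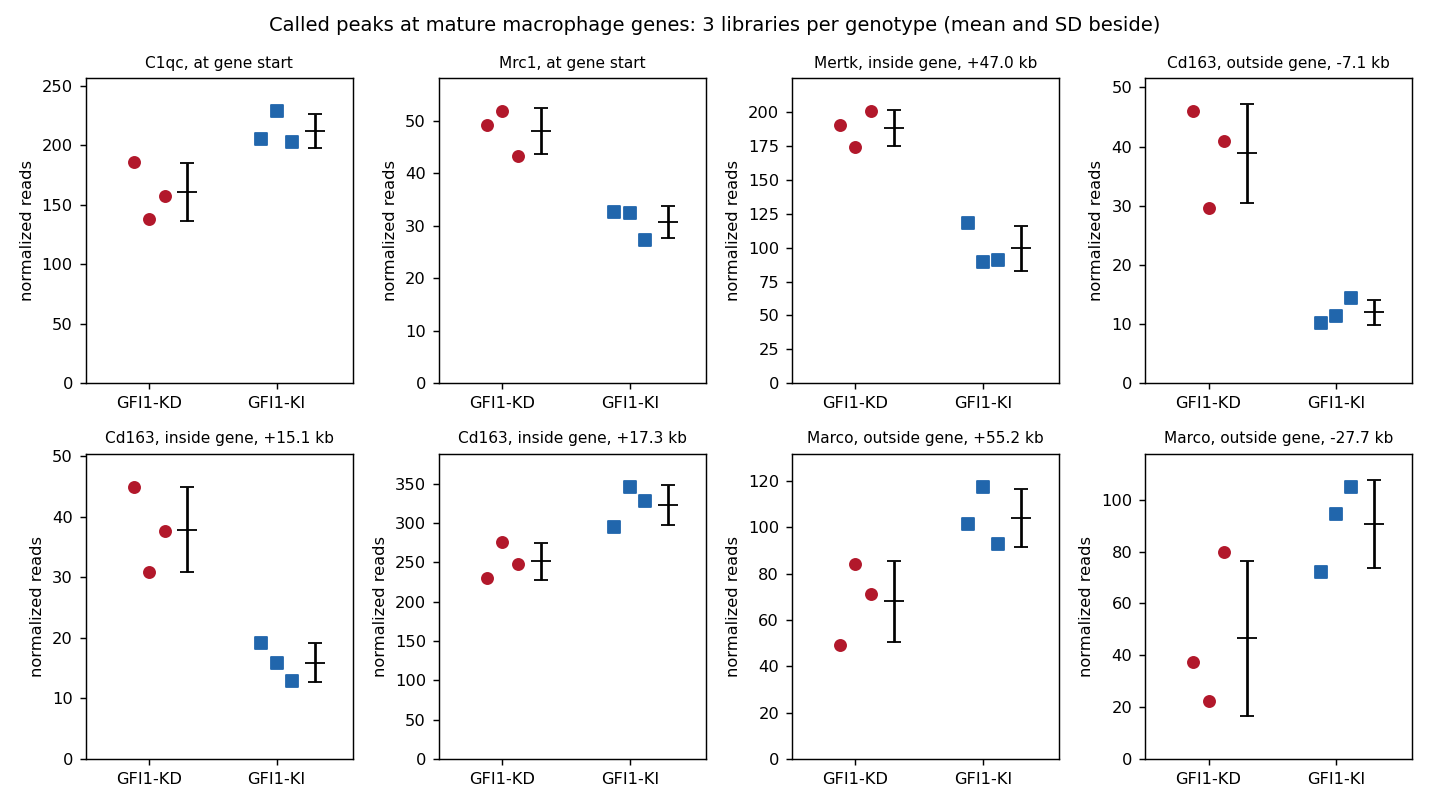
Normalized reads of the 8 called peaks in each library (points), with GFI1-KD left of GFI1-KI and the mean ± SD beside; positions are distances from the gene start. In 7 panels the genotypes do not overlap, and in the Marco panel at -27.7 kb KD3, at 79.8, lies above KI1, at 72.1.

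Signal was also summed over all peaks of a gene. Cd68 had 1183 ± 59.7 normalized reads in GFI1-KD and 1098 ± 35.9 in GFI1-KI, and Mertk 1319.9 ± 36.9 in GFI1-KD and 1202 ± 61.0 in GFI1-KI (SD, n = 3 each). These were the only genes of the 10 whose sums did not overlap between genotypes, both higher in GFI1-KD. The Cd68 sum is its single peak again, which was not called. How many of all genes have sums that do not overlap was not computed. Of single tested peaks, 28.8% did not overlap. The Marco sums were 441, 496 and 665 in GFI1-KD and 625, 709 and 683 in GFI1-KI, overlapping through KD3. The log2 ratio of the Marco means was -0.33, and -0.52 without KD3. C1qc summed to 246, 170 and 197 in GFI1-KD and 241, 281 and 248 in GFI1-KI, overlapping through KD1, with a log2 ratio of -0.33. The sums are descriptions and carry no test.

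Genes with related roles were then read from the same fit, leaving out the 10 genes themselves. Stab1 and Stab2 stand in both the apoptotic cell and the scavenger receptor list. The uptake of apoptotic cells was represented by 15 further genes, among them Gas6, which encodes a ligand of Mertk and Axl. Of their 309 tested peaks 9 were higher and 13 lower in GFI1-KD (7.12% called, against 10.5% of all). A peak inside Gas6 on chromosome 8 held 52.4, 51.8 and 41.0 normalized reads in GFI1-KD and 136, 131 and 103 in GFI1-KI. Its log2 fold change was -1.33 ± 0.17 (SE, limma adjusted p = 5.87e-05), and it was lower in all 3 GFI1-KD libraries. A peak 2.99 kb from Anxa1, which encodes annexin A1, was higher, at 87.7, 90.1 and 88.7 in GFI1-KD and 38.3, 35.9 and 28.7 in GFI1-KI (limma adjusted p = 8.26e-05). At 26.4 kb from Elmo1, an engulfment gene, a peak was lower (log2 fold change -1.80), while 3 of the 106 tested Elmo1 peaks were higher. Inside Gulp1, an engulfment adaptor gene, a peak was also lower (-1.60), and 3 of the 4 tested Gulp1 peaks were lower. That peak held 39.6, 40.7 and 35.5 normalized reads in GFI1-KD and 74.3, 148 and 152 in GFI1-KI, with KI1 well below KI2 and KI3.

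The complement list held 16 further genes with 97 tested peaks, 8 higher and 7 lower (15.5% called, against 10.5% of all tested peaks). Over all tested peaks 4.99% were higher and 5.48% lower, and the counts per gene below carry no test of their own. Cd93, a lectin-like surface receptor gene, had 6 of 21 peaks higher and none lower, and Itgam, which encodes a chain of complement receptor 3, had 2 of 20 higher and none lower. Lower were 1 of 3 peaks at Cd59a and 2 of 5 at Cd55, both genes of membrane proteins that restrain complement. The Cd59a peak held 42.8, 22.2 and 20.0 normalized reads in GFI1-KD and 70.9, 97.3 and 74.0 in GFI1-KI (limma adjusted p = 0.000332). The Cd55 peak, 0.727 kb from the gene, held 50.3, 35.8 and 41.0 in GFI1-KD and 77.7, 97.3 and 73.3 in GFI1-KI (limma adjusted p = 0.00244).

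Among 11 further scavenger receptor genes with 133 tested peaks, 9 were higher and 5 lower (10.5% called, and 10.5% of all tested peaks). Of the 9 higher peaks 8 were at Msr1. Msr1, the class A scavenger receptor gene on chromosome 8, had 8 of its 9 tested peaks higher. Called peaks around Msr1, and around Gas6 on the same chromosome, were not counted, so a change of the wider region was not examined. The strongest Msr1 peak by p, 8.94 kb from the gene, held 184, 93.8 and 96.5 normalized reads in GFI1-KD, against 29.3, 26.3 and 13.6 in GFI1-KI. The genotypes did not overlap, KD1 stood well above KD2 and KD3, and the log2 fold change was 2.38 ± 0.26 (SE, limma adjusted p = 1.04e-05). A peak inside Stab2 was lower, at 59.9, 24.7 and 43.2 in GFI1-KD and 96.8, 137 and 146 in GFI1-KI (limma adjusted p = 0.000195). Single peaks inside Scara5 and Scarb1 were also lower, with log2 fold changes of -0.80 and -0.67.

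The list of 12 macrophage regulators had 220 tested peaks, 18 higher and 12 lower (13.6% called, against 10.5% of all tested peaks). A peak inside Csf1r, the receptor gene for the macrophage growth factor, was higher (log2 fold change 0.47 ± 0.11, SE), and 2 other Csf1r peaks were lower. A peak 22.8 kb from Csf1, the ligand gene, was higher (0.72 ± 0.11), with 3 of 21 tested Csf1 peaks higher and 1 lower. Peaks inside the transcription factor genes Mitf and Pparg were lower, with log2 fold changes of -1.40 and -1.41, but 4 other Mitf and 3 other Pparg peaks were higher. The tissue macrophage surface list, with 14 further genes, had 118 tested peaks, 5 higher and 6 lower (9.32% called, against 10.5%). A peak inside Cx3cr1, the fractalkine receptor gene, held 299.6, 233 and 224 normalized reads in GFI1-KD and 172, 148 and 156 in GFI1-KI (log2 fold change 0.66 ± 0.13, SE, limma adjusted p = 0.00227). Near Slc40a1, the iron exporter gene, a peak 21.3 kb away was lower (limma adjusted p = 0.0017). It held 62.1, 35.8 and 42.1 in GFI1-KD and 76.6, 109.6 and 110.3 in GFI1-KI. A peak 21.4 kb from Vsig4, a complement receptor gene of tissue macrophages, was higher (log2 fold change 0.76). Of the 10 tested Vsig4 peaks 2 others were lower. A peak 29.4 kb from Adgre5, an adhesion receptor gene, was lower (-1.30), at 16.0, 6.17 and 9.98 normalized reads in GFI1-KD. It held 23.6, 28.9 and 26.4 in GFI1-KI, and 1 other of the 19 tested Adgre5 peaks was higher. Over these lists the counts in both directions moved with scaling and with single libraries, as given under the processing alternatives.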

How the data were processed

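ATAC-seq was done on 3 GFI1-KD and 3 GFI1-KI libraries. The authors deposited 1 table of signal values, normalized read counts in consensus peaks, and the values show 1 scaling factor per library. In each column 100% of values were whole multiples of 1 step (tolerance 0.01 reads), so reads were recovered. The submitters' processing notes list BWA and Trim Galore, MACS2, DiffBind, HOMER and ChIPseeker, Picard and SAMtools, and the build mm10. The sources used here do not give versions, roles, peak merging, the scaling method or a shift of reads for Tn5. Columns headed WT were taken as GFI1-KI, since the series title calls that genotype wild type and the numbers match. Chromosomes are coded in alphabetical order of their names, and START and END are given as deposited.

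Peaks were assigned with RefSeq bounds of 21887 protein-coding genes on GRCm38.p6. Exons, introns and UTRs were not told apart. Peaks with a mean of at least 10 were compared on the log2(value + 1) scale in R 4.3.3, using limma 3.58.1 with its trend option and without a replicate block. Named are all 10 genes with their called, strongest and start-site peaks and the peak of smallest p, and up to 4 genes of each other list by smallest p. Marker lists are given by their counts and sums only. Alternatives were other scalings, pseudocounts, filters, thresholds and assignments, robust variance estimation, a term for libraries with and without chromosome Y reads, a replicate block, edgeR 4.0.16 and DESeq2 1.42.0 on recovered reads, and leaving out each library. Genes and lists were chosen with earlier results of these data known. Motifs were chosen after the files were seen. Other steps used pandas 2.3.3, numpy 2.4.6 and matplotlib 3.10.9 under Python 3.11.15.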

Additional observations from a re-analysis of the deposited data

How the results depend on the processing

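The 8 called peaks became 3 in DESeq2, 3 at a threshold of 0.01 and 4 with gene bodies only. Without single libraries they ranged from 3 to 11, with 3 to 7 higher, 0 to 4 lower, and 2 to 6 genes with a called peak. The share of all tested peaks called was 10.5% with all libraries, 6.34% in DESeq2, 4.11% without KI3, 4.23% without KI2 and 13% without KI1, so the counts at these genes moved with the whole set. DESeq2 gave an adjusted p to 140918 of the 170733 peaks, and its share counts the others as not called. The 4 higher peaks became 7 at a threshold of 0.1 and 2 with gene bodies only. The 4 lower peaks became 2 with median-of-ratios scaling, 0 in DESeq2, 0 at a threshold of 0.01, 2 with gene bodies only and 2 within 10 kb. The 5 genes with a called peak became 2 in DESeq2, 2 at a threshold of 0.01 and 3 with gene bodies only. In the other lists, with Stab1 and Stab2 counted once, 48 higher peaks became 80 with median-of-ratios scaling, 85 with equal totals, 84 in edgeR, 79 at a threshold of 0.1 and 23 at 0.01, and their 41 lower peaks became 14 in DESeq2, 66 at 0.1 and 13 at 0.01. Without single libraries these ranged from 20 to 88 and from 14 to 48. For the summed signals, the log2 ratio of GFI1-KD over GFI1-KI became 0.036 for Adgre1 within 10 kb (-0.05 with all peaks), 0.51 for C1qa, -0.22 for Cd163 and 0.089 for Marco with gene bodies only (0.08, 0.07 and -0.33 with all peaks), and -0.11 for Cd163 within 10 kb. Changes of assignment leave out peaks by construction, and for the other settings the cause was not tested. Without single libraries the log2 fold changes of 4 uncalled peaks changed sign, with ranges of -0.13 to 0.17 for C1qa at 136907117, -0.077 to 0.22 for C1qb, -0.13 to 0.034 for the Mertk start and -0.0066 to 0.21 for the Axl start. Same-numbered libraries did not deviate together (correlations of deviations -0.02, -0.04 and 0.06 for numbers 1, 2 and 3), so the numbers were not taken as pairs. With the replicate block 7 peaks were called, all among the 8, and the Mrc1 call was lost. Depth limits the weak peaks: at 1 read worth 0.755 to 1.23 normalized reads, values near 10 rest on about as many reads.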
